A study of Mus musculus with 25 samples.

Results

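The low Malat1 cells were 6 of 25 single neurons, chosen by a measured value: Malat1 below 20 RPKM (reads per kilobase of exon, scaled to library size). They were cells 1, 3, 5, 6, 29 and 31 of the series, and the other 19 cells were at or above that value. All 25 cells were picked by hand for green fluorescence after papain digestion of tissue from the arcuate nucleus with the median eminence, a hypothalamic region that governs feeding and pituitary hormones. Tissue came from 2 male (C57BL/6 x DBA)F2 mice with an average age of 63 days and was pooled. Both groups share the driver and the virus. The driver is RIP-Cre, in which a rat insulin promoter drives Cre recombinase. The virus is AAV-loxSTOPlox-GFP, which makes green fluorescent protein only after Cre has acted. F2 mice can differ in the alleles they inherit, and the mouse each cell came from is not given. A difference between the 2 mice therefore cannot be told apart from one between the groups. Libraries of polyadenylated RNA were made with Smart-Seq2 and Nextera XT, a full-length method that marks no strand and carries no molecular identifiers. Because the cells came from 1 pool and were grouped by one of their own measurements, the groups were compared without a test, and every spread below is between cells.

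Malat1 is a long noncoding RNA that stays in the nucleus, where it gathers in the speckles that store splicing factors. Its mature end is made by cleavage and folds into a triple helix in place of a poly(A) tail. Meg3 is an imprinted noncoding RNA read from the maternal chromosome and abundant in neurons, and Kcnq1ot1 is an imprinted antisense RNA that remains at its own locus and silences its neighbours on the paternal chromosome. Snhg11 hosts small nucleolar RNAs in its introns and is prominent in RNA from neuronal nuclei.

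The promoters of the 4 RNAs that the comparison turns on are shown so that their shared and differing letters can be seen. Each runs from 250 bases before to 50 after the RefSeq start on GRCm38.p6, 5′ to 3′ on the strand of the gene. The coordinates are chr19:5802623-5802922 on the minus strand for Malat1 and chr12:109540746-109541045 on the plus strand for Meg3. They are chr2:158375463-158375762 on the plus strand for Snhg11 and chr7:143296498-143296797 on the minus strand for Kcnq1ot1. Capitals mark TGACG or its reverse complement CGTCA, the core of the cAMP response element that binds CREB, and the whole palindrome TGACGTCA where both overlap.
Malat1: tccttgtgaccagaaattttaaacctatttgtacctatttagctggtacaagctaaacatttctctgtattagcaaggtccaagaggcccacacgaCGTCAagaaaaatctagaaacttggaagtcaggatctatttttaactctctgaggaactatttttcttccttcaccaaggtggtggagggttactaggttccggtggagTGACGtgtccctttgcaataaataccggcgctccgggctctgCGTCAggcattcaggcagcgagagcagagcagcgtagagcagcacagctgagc
Meg3: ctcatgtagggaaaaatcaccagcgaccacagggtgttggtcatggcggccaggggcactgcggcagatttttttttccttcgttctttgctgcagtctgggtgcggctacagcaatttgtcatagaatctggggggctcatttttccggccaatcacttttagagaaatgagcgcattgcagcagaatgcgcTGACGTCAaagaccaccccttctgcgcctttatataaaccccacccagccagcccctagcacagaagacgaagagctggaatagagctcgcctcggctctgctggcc
Snhg11: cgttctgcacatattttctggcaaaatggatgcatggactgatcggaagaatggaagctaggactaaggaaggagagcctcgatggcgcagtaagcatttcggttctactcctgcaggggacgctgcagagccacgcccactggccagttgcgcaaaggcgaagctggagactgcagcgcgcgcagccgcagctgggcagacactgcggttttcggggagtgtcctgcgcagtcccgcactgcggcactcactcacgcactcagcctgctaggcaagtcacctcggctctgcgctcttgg
Kcnq1ot1: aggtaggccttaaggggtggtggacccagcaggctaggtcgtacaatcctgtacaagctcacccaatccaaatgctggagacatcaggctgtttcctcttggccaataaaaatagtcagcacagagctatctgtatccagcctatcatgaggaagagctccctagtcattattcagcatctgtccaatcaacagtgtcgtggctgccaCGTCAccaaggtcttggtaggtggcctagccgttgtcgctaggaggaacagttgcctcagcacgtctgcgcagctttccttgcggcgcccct

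The short core was found 3 times in the Malat1 window, the last of them across the start itself. It was at 1 position before Kcnq1ot1 and nowhere in the Snhg11 window, whereas Meg3 had the full palindrome. Among 32851 mouse promoters of this length, 20.8% held the short core and 1.79% the palindrome, on either strand. A TATAAA was present before Meg3 (8.32% of promoters), and CCAAT or its complement ATTGG was present at 1 position before Meg3 and 3 times before Kcnq1ot1 (37.4% of promoters). No motif of these was present in all 4 windows.

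Since Malat1 carries no poly(A) tail, the longest run of A in a reference transcript is shown for Malat1 and Kcnq1ot1, in capitals with 20 bases on either side. In Malat1-201, a transcript of 6983 bases, the run of 12 A lay at positions 6674 to 6685. That is 298 bases from the end of the annotated sequence, which need not be the mature end made by cleavage. In Kcnq1ot1-201 a run of 41 A lay at positions 69565 to 69605. Of 7040 transcripts of at least 5 kb, 19.7% and 0.114%, respectively, held a run as long.
Malat1-201: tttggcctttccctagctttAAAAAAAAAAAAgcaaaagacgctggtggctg
Kcnq1ot1-201: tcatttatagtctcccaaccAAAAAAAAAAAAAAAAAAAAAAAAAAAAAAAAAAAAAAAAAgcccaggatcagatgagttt

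Malat1, the value that defined the groups, stood at 13.3, 14.0, 16.6, 12.2 and 10.2 RPKM in cells 1, 3, 5, 6 and 29 and was listed at 0 in cell 31. The other 19 cells ran from 45.9 to 196 RPKM with a median of 119. Just inside the limit was cell 5 at 16.6 RPKM and just outside it cell 8 at 45.9 RPKM, so no cell lay between those values. These levels only describe the rule.

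Depth was estimated from the steps that 1, 2 and 3 reads make among the low values. It came to 1197700 to 2697800 reads in the low Malat1 cells and 890900 to 2975600 in the others. Genes reaching 10 RPKM numbered 4337 to 6183 and 3843 to 6015, respectively. Genes listed above 0 were 5409, 5667 and 5494 in cells 3, 5 and 6, below all 19 other cells (5905 to 9138), whereas cells 1 and 31 had 6747 and 6616 and cell 29 had 9271, above all of them. By genes above 0, the low Malat1 cells included both the lowest and the highest number of the series, whereas by genes reaching 10 RPKM the lowest was cell 43, one of the others, at 3843.

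Meg3 showed the lowest difference of all genes compared. It was listed at 0 in cells 1 and 3 and measured 8.67, 2.61, 17.9 and 0.11 RPKM in cells 5, 6, 29 and 31. In the other cells it ran from 47.9 to 242 RPKM, with a median of 118. No low Malat1 cell reached the lowest of the others, and the mean log2(RPKM + 1) was 1.59 ± 1.85 (SD, n = 6) against 6.92 ± 0.63 (SD, n = 19), a difference of -5.33. The highest low Malat1 cell held an estimated 872 Meg3 reads, and the lowest of the others 1562.

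Snhg11 behaved alike and was present in every cell. Its level was 0.41, 12.7, 38.9, 17.5, 28.0 and 10.9 RPKM in cells 1, 3, 5, 6, 29 and 31, against 200 to 349 RPKM (median 271) in the other 19. The groups did not overlap, and the difference in mean log2(RPKM + 1) was -4.34. The other cells were close together, with an SD of 0.22 log2 units, and the low Malat1 cells were spread, with an SD of 1.70.

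Kcnq1ot1 was low in all cells for its length and still separated the groups. Cell 1 had 0.05 RPKM, cell 5 had 0.01 RPKM, and the remaining 4 low Malat1 cells were listed at 0. The other 19 cells held 0.38 to 6.01 RPKM with a median of 2.47, and the difference was -1.77 on the log2(RPKM + 1) scale, which understates changes at such levels. Over 93092 bases of exon these values correspond to at most 7.62 estimated reads in a low Malat1 cell and at least 60.5 in any other. Kcnq1, the potassium channel gene on the opposite strand of the same locus, was listed at 0 in all 25 cells.

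Differences were computed for the 9782 genes that reached 10 RPKM in 3 or more cells, with Malat1 left out. Kcnq1ot1 never reached that level and was not among them. For 3 of these genes, or 0.0307%, every low Malat1 cell was below every other cell: Meg3, Snhg11 and Pol. For 0 genes (0%) was every low Malat1 cell above every other. Without the level filter, 16340 genes were above 0 somewhere, and 8 of them separated the groups downward and 0 upward. The 5 added were Kcnq1ot1, 9530091C08Rik, Reep3, 6530403H02Rik and Hmmr. Reep3, 6530403H02Rik and Hmmr, singled out after their values were seen, rest on about 1 estimated read in the lowest of the other cells.

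**Figure D1:**
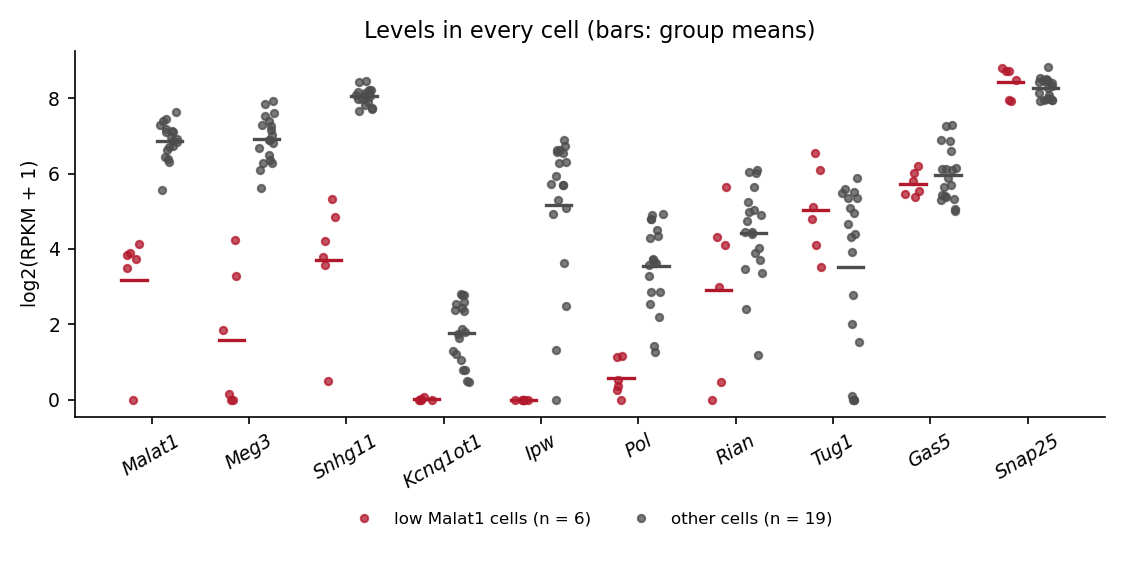
Levels of 10 RNAs in each cell on the log2(RPKM + 1) axis, with red points for the 6 low Malat1 cells, grey points for the other 19, and bars at the group means. Meg3, Snhg11, Kcnq1ot1 and Pol separate as Malat1 does, Ipw is listed at 0 in all 6 red cells, and Rian, Tug1, Gas5 and Snap25 overlap.

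Pol, a symbol given to retroviral-type polymerase sequences, occupied 2 rows of the table, of which the one with the higher sum was used. It stood at 0.20, 0, 0.45, 1.19, 1.26 and 0.28 RPKM in cells 1, 3, 5, 6, 29 and 31 and at 1.41 to 29.6 RPKM (median 11.4) in the others, a difference of -2.96. Such sequences are repeated in the genome, so where its reads came from is uncertain. The gap was narrow and closed when both rows were summed or when the cells were scaled to equal totals, whereas Meg3 and Snhg11 remained apart under both.

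Ipw, an imprinted noncoding RNA of the Prader-Willi region, had the second lowest difference of all genes compared, at -5.18. It was listed at 0 in all 6 low Malat1 cells. In the others it was above 0 in 18 of 19 and reached 10 RPKM in 16, with a median of 51.8 and a highest value of 117 RPKM. It lies inside the longer Snhg14 transcription unit, and reads of overlapping transcripts cannot be told apart. The single other cell listed at 0 was all that made the groups touch.

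Cell 8, the lowest in Malat1 of the 19, was also the lowest of the 19 in Meg3, Snhg11, Kcnq1ot1 and Pol. Across those 19 cells, as a description over cells of 1 pool, the Spearman correlation with Malat1 was 0.31 for Meg3, 0.26 for Snhg11, 0.41 for Kcnq1ot1, 0.62 for Pol and -0.05 for Ipw. It was 0.46 for 6330403K07Rik, whose difference between the groups was -0.10, and -0.45 for Mirg. The cells share depth and amplification differences, and no p is given. The summed level of Meg3, Snhg11 and Kcnq1ot1 was 0.46 to 47.6 RPKM in the low Malat1 cells and 248 to 533 RPKM in the others. Each of the 3 RNAs already separates the groups, so a gap in their sum follows. Cell 29, with the most genes above 0, held 45.8 RPKM, and cell 43, with 5905 genes above 0, held 504 RPKM.

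**Figure D2:**
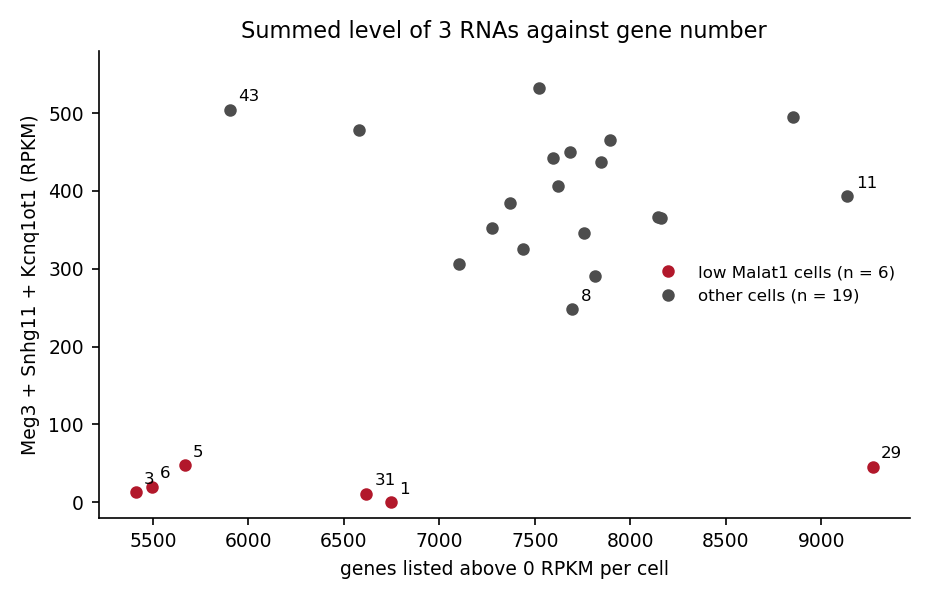
Sum of Meg3, Snhg11 and Kcnq1ot1 (RPKM) against the number of genes listed above 0 in each cell, with the 6 low Malat1 cells in red, the other 19 in grey, and cell numbers beside the cells named in the text and cell 11. The red cells lie at or below 47.6 RPKM from 5409 to 9271 genes, and the grey cells at or above 248 RPKM.

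Of the genes compared, 17.9% were lower in the low Malat1 cells by at least 1 log2 unit (1754 genes) and 13.2% were higher (1287 genes). The median difference over all of them was -0.06 with an SD of 1.01. A difference of 1 log2 unit between 6 and 19 cells was thus common, and the counts below are read against these shares. With a pseudocount of 10 RPKM in place of 1, which gives low genes less weight, 171 genes were lower and 253 higher, so the larger side turned. A gene can pass the level filter through the cells of 1 group alone, more easily through the 19 others, which largely sets its direction. With the filter at 6 cells, 1321 genes were lower and 1081 higher.

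The types of neuron were unevenly represented. Sst, the peptide somatostatin, reached 10 RPKM in 3 of 6 low Malat1 cells (916, 786 and 710 RPKM in cells 1, 6 and 31) and in 2 of 19 others (cells 9 and 25). Th, the rate-limiting enzyme of dopamine synthesis, was at that level in 2 of 6 and 6 of 19, and Pomc, the melanocortin precursor, in 1 of 6 and 9 of 19. Agrp, a peptide that promotes feeding, was at that level in 4 of 6 and 5 of 19. Among the Sst cells alone, Meg3 was 0 to 2.61 RPKM against 118 to 185 RPKM, and Snhg11 0.41 to 17.5 against 253 to 288 RPKM. Among the Th cells alone, Meg3 was listed at 0 in both low Malat1 cells, 1 and 3, and held 47.9 to 230 RPKM in the 6 others. Since Meg3 and Snhg11 separate the groups over all 25 cells, they must also do so within a type, and these values only give the levels there.

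Some neuronal markers were high in all 6 low Malat1 cells and others were missing from several. Snap25, a synaptic vesicle fusion protein, was 240 to 443 RPKM in them and 242 to 449 RPKM in the others, and Gap43, a growth cone protein, was 327 to 509 and 273 to 588 RPKM. Gad1, which makes the transmitter GABA, was at 10 RPKM or more in 6 of 6 and 17 of 19, whereas Gad2, its paralog, was so in 3 of 6 and 16 of 19. Of 14 neuronal markers, 4 were lower by at least 1 log2 unit and 0 higher, with a median of -0.03; without cell 5 it was 2, and without the Sst cells 6. The lowest were Thy1, a surface glycoprotein, and Rbfox3, a nuclear splicing regulator known as NeuN, at -2.28 and -2.11, followed by Nefl, a neurofilament chain, at -1.69 and Elavl3, an RNA-binding protein, at -1.18. Without cell 3 or without cell 5 Nefl was at -0.80, and Elavl3 was at -0.84 without cell 1 and -0.73 without cell 5. Thy1, Rbfox3 and Nefl were all listed at 0 in cells 3 and 5. Rbfox3 was listed at 0 in cells 3, 5 and 6 and measured 58.8, 3.89 and 49.8 RPKM in cells 1, 29 and 31.

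Of 28 RNAs listed as nuclear and noncoding, Malat1 included, 24 others were in the table and 14 of these passed the level filter. Among the 14, 6 were lower and 1 higher by at least 1 log2 unit, with a median of -0.91, or -0.60 without cell 26. The 6 were Meg3, Snhg11, Miat, Rian, Ftx and Mirg, the first pair being those already described. Miat, another RNA of nuclear bodies, was at most 0.91 RPKM in the low Malat1 cells and up to 27.3 RPKM in the others, at -1.86. Ftx, a noncoding RNA of the X-inactivation centre, was above 0 only in cell 29 of the 6, at 2.32 RPKM, and Firre, which anchors chromatin in the nucleus, only in cell 29 as well, at 19.1 RPKM. Miat, Ftx and Firre were also listed at 0 in 6, 9 and 9 of the 19 others. Miat, Ftx and Mirg reached 10 RPKM in no low Malat1 cell. They passed the filter through the other cells alone, so their direction was largely set by it.

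Several nuclear RNAs did not share the pattern. Tug1, which is found in nucleus and cytoplasm, was higher, at 10.5 to 91.7 RPKM in all 6 low Malat1 cells and at 10 RPKM or more in 12 of 19 others, a difference of 1.51. Peg13 and Rmst differed by -0.16 and -0.05, with 84.4 RPKM of Peg13 in cell 29. 6330403K07Rik was abundant in both groups, at 323 to 629 and 296 to 671 RPKM. The annotation used here classes it as protein-coding, and its place on the nuclear list is unsure. Summed over the list without Malat1, Meg3, Snhg11, Kcnq1ot1 and 6330403K07Rik, the level was 59 to 147 RPKM in the low Malat1 cells and 25.0 to 179 RPKM in the others, and the groups overlapped. With the filter set at 6 cells the list's median was -0.16.

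The neighbours of Meg3 on chromosome 12 gave a mixed picture. Rian, the next maternally expressed noncoding RNA of that imprinted domain, stood at 7.03, 48.6, 0, 18.9, 0.39 and 16.2 RPKM in cells 1, 3, 5, 6, 29 and 31 and at 1.27 to 67.8 RPKM in the others. The difference was -1.50, or -0.92 without cell 5, the groups overlapped, and cell 3 held 48.6 RPKM of Rian with Meg3 listed at 0. Mirg, the microRNA host farther along, was listed at 0 in all 6 and in 8 of the 19, and its difference of -1.05 was -0.88 without cell 11, with like values below 1 log2 unit without cell 8, 9, 25 or 26. Dlk1, the paternally expressed coding gene of the domain, differed by 0.59, at 41.0 to 184 RPKM against 0 to 151 RPKM. Of 10 genes compared at the Meg3 and Kcnq1ot1 domains, 4 were lower and 0 higher, and without the Sst cells 2 were lower and 2 higher. The 4 include Meg3 itself, Rian and Mirg, which the nuclear list already counts, so this is no separate result.

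Around Malat1 on chromosome 19, 10 neighbours passed the filter, of which 1 was lower and 3 higher. The counts were 2 and 3 without cell 3, and 2 and 2 without cell 31. The count of higher genes was also 2 without cell 5, 6 or 29, and without any of several other cells. Kat5, a histone acetyltransferase, was 59.5 to 100 RPKM in all 6 low Malat1 cells and ran from 0 to 102 RPKM in the others, where it was at 10 RPKM or more in 10 of 19, a difference of 3.09. Syvn1, a ubiquitin ligase of the endoplasmic reticulum, was the lower one, at -1.67.

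Noncoding RNAs known mostly from the cytoplasm or as hosts of small nucleolar RNAs were also lower in part: 3 of 7 by at least 1 log2 unit and 0 higher, with a median of -0.47. Without cell 1 or without cell 3 the count was 1, and without cell 5 or without cell 29 the median was -0.89. These were Snhg5, Snhg12 and Snhg1, at -1.98, -1.33 and -1.23. Leaving out cell 1, 3 or 5 took Snhg12 to -0.99 and Snhg1 to -0.89, leaving out cell 6 also took Snhg12 to -0.99, and leaving out cell 31 took it to -2.10. Gas5 was 40.5 to 73.0 RPKM against 31.3 to 156 RPKM, a difference of -0.24, and Snhg6 was higher by 0.96. Snhg11, a host as well, was counted on the nuclear list and not here. By annotation class, 155 genes were long noncoding, of which 23.2% were lower and 14.2% higher, with a median of -0.32. For 9021 protein-coding genes, a class that holds Snhg11 in this annotation, the shares were 17.5% and 13.2% and the median -0.04. With all genes compared divided into 5 equal classes by mean level, the least abundant class had a median of -0.27.

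**Figure D3:**
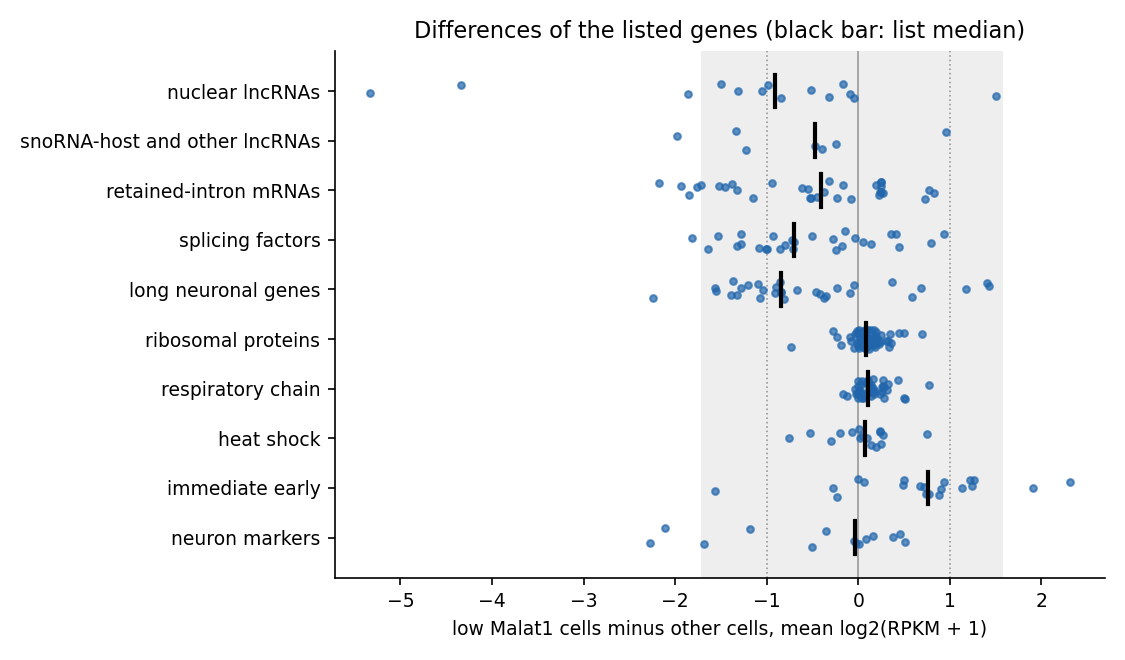
Difference in mean log2(RPKM + 1), low Malat1 cells minus other cells, for each gene compared in 10 lists, with a black bar at the list median, dotted lines at -1 and 1, and a grey band from the 5th to the 95th percentile of all genes compared. Meg3 and Snhg11 lie far to the left at -5.33 and -4.34, and the ribosomal protein and respiratory chain genes lie close to 0.

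Messenger RNAs known to be held back in part in the nucleus by retained introns were lower for 10 of 32 and higher for 0, with a median of -0.41. The median was -0.17 without cell 31 and -0.03 among Th cells alone. Srsf2, a splicing factor whose own RNA is spliced variably, showed -2.18: it was 1.77 and 0.27 RPKM in cells 5 and 6 and 41.4 to 98.6 RPKM in the remaining 4, against 31.7 to 213 RPKM in the others, and its difference was -1.39 without cell 6. Luc7l3 and Ccnl2 showed -1.94 and -1.85, and Srsf3 differed by -0.16. Of 28 splicing and speckle proteins, 8 were lower and 0 higher, with a median of -0.70. It was -0.41 without cell 5 and -0.46 without cell 3. With cells 1 and 31 as the only low cells it was -0.14, with 8 lower and 4 higher. In that setting 2737 of all 9396 genes compared were lower and 2148 higher, so these counts do not stand out. Among the 28 proteins were Pnn at -1.81 and Acin1 at -1.54, both of the speckle and of the exon junction. Sf3b2, a subunit of the U2 particle, was 86.0 to 149 RPKM against 50.2 to 178 RPKM. Of 13 paraspeckle proteins, 3 were lower and 0 higher, among them Nono, which was listed at 0 in cell 3 and at 0.27 RPKM in cell 31. Its difference of -1.75 was -0.84 without cell 3 and -0.91 without cell 31. The count of lower paraspeckle genes was 7 without cell 29 (2371 of all 9654 genes compared), 5 without cell 9 and 2 without cell 11.

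Genes that cells express at high and even levels scarcely differed. Of 68 ribosomal protein genes and 48 nuclear genes of the respiratory chain, 0 passed 1 log2 unit in either direction, with medians of 0.09 and 0.11. Rpl3 was 190 to 430 RPKM in the low Malat1 cells and 195 to 411 RPKM in the others, and Cox6c was 236 to 428 and 159 to 501 RPKM. Sdhc, a subunit of succinate dehydrogenase, was the highest of its list, at 0.77. Rps10 was the lowest of its list, at -0.73, with 3.33 RPKM in cell 3 against 245 to 377 RPKM in the remaining 5. Of 16 heat shock genes, 0 passed 1 log2 unit in either direction, and their median was 0.07.

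Coding genes that span more of the genome had lower differences. The median was 0.08 for 2158 genes under 10 kb, 0.01 for genes of 10 to 30 kb, -0.14 for 30 to 100 kb, -0.30 for 100 to 300 kb and -0.50 for 330 genes over 300 kb. Of the last class 29.1% were lower and 6.36% higher by at least 1 log2 unit. Exon length moved with span: the medians were 0.13 for genes with under 2 kb of exon and -0.36 for those with over 8 kb. Among genes with over 8 kb of exon, the median went from -0.15 at 10 to 30 kb of span to -0.61 over 300 kb, and with 4 to 8 kb from -0.10 under 10 kb to -0.25 over 300 kb. With 2 to 4 kb it was 0.08 and 0.09 below 30 kb and -0.08 at 100 to 300 kb. With under 2 kb there was no such trend, at 0.11, 0.19 and 0.16 in the first 3 classes of span. In each of the 5 classes of mean level, genes over 100 kb had a lower median than those of 100 kb or less, with -0.43 against -0.18 in the lowest class and 0.09 against 0.13 in the highest. The part of cDNA length or RNA quality in this trend was not tested.

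**Figure D4:**
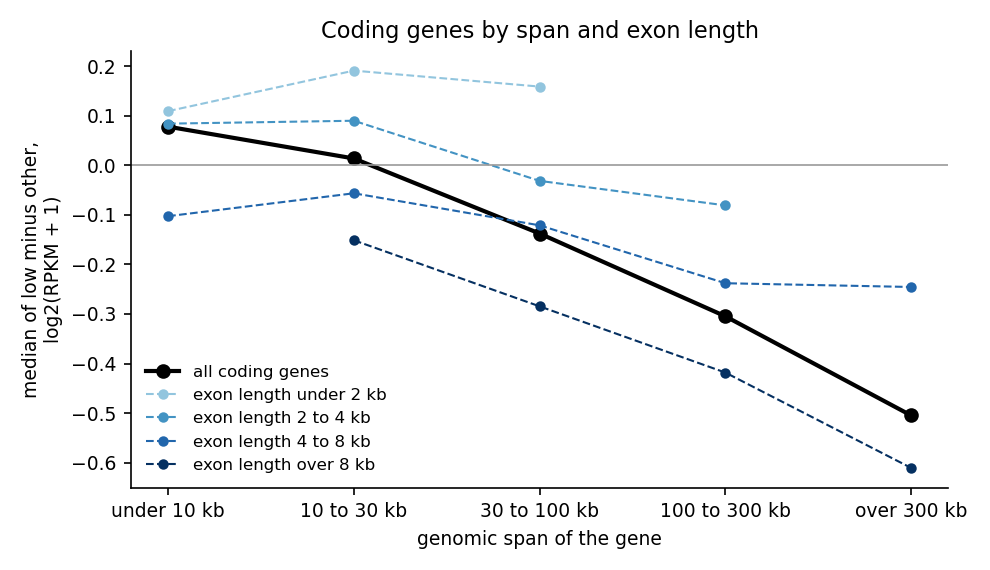
Median difference in log2(RPKM + 1), low Malat1 cells minus other cells, of coding genes by genomic span, for all of them (black) and within 4 ranges of exon length (blue, dashed). The black line goes from 0.08 under 10 kb to -0.50 over 300 kb, the line for exons over 8 kb goes from -0.15 to -0.61, and the line for exons under 2 kb does not fall.

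On the list of long neuronal genes 11 of 31 were lower and 3 higher, with a median of -0.84. Without the Sst cells the median was -0.46, among Sst cells alone it was 0.31, and without cell 5 the count of higher genes was 5. Ptprd, a receptor phosphatase of synapses, was at most 2.94 RPKM in the low Malat1 cells and had a median of 9.55 RPKM in the others, at -2.24. Dpp6, a partner of potassium channels, was 45.9 to 72.8 RPKM in cells 1, 3, 6 and 29 but 0.10 and 0.20 RPKM in cells 5 and 31. Its difference of -1.57 was -0.79 without cell 5 and -0.82 without cell 31. Cntnap2, an adhesion protein of the axon, went the other way, at 11.6 to 39.8 RPKM in all 6 and at 10 RPKM or more in 11 of 19, a difference of 1.42.

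Immediate early genes, which neurons switch on within minutes of stimulation, were lower for 1 of 20 and higher for 6, with a median of 0.76. Without the Sst cells 5 were lower and 5 higher, with a median of 0.30, and among Sst cells alone the median was 0.01, against 0.22 for all genes there. With cells 1 and 31, both Sst cells, as the only low cells, 0 were lower and 15 higher, with a median of 1.54. In that setting 2148 of all 9396 genes compared were higher. Fosb was 41.2 to 207 RPKM in the low Malat1 cells against a median of 38.9 and a range of 0 to 221 RPKM, a difference of 1.91, and Junb was 100 to 374 against 1.41 to 277 RPKM, at 1.27, or 0.99 without cell 9. Egr2 was 147, 67.1 and 42.5 RPKM in cells 1, 6 and 31, the Sst cells, and listed at 0 in the remaining 3. Egr1 differed by 0.07. Of 15 genes of stress and cell death, 0 were lower and 3 higher, and without cell 1, 3, 4, 5 or 7 in turn 5 were higher (and 2 lower without cell 5). Bax, which opens the mitochondrial outer membrane in apoptosis, was 22.7 to 158 RPKM in all 6 and at 10 RPKM or more in 10 of 19, at 2.61. Cdkn1a, a cell cycle inhibitor induced by p53, was 176, 0, 24.3, 137, 20.3 and 0 RPKM in cells 1, 3, 5, 6, 29 and 31, while 2 of 19 others reached 10 RPKM.

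The highest difference of all was that of Maob, a mitochondrial enzyme that breaks down amines. It stood at 322, 82.8, 261, 109, 33.1 and 123 RPKM in cells 1, 3, 5, 6, 29 and 31. Of the others, 12 were listed at 0 and 7 were at 10 RPKM or more, with a highest value of 151 RPKM, so the groups overlapped, and the difference was 4.73. The same form, with every low Malat1 cell at 10 RPKM or more and a share of the others listed at 0, was seen in Ogfr, a receptor for opioid growth factor (5 of 19 at 10 RPKM or more), Asb4 (8 of 19), Fbxo2 (7 of 19), Gstm4 (8 of 19) and Tsr3 (8 of 19). Phlda1 was 4.80 to 97.1 RPKM in the 6 and at most 22.2 RPKM in the others, at 3.88.

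Among the lowest after Meg3 and Ipw, Cwc27, a spliceosome-linked isomerase, was listed at 0 in all 6 low Malat1 cells and was at 10 RPKM or more in 13 of 19 others, at -4.42. Tbc1d17, a regulator of vesicle traffic, was listed at 0 in cells 1, 6 and 31, while 18 of 19 others reached 10 RPKM, at -3.52. Cd99l2, an adhesion protein, was 105 and 71.4 RPKM in cells 5 and 29 and at most 2.05 RPKM in the remaining 4, whereas all 19 others held 21.7 to 147 RPKM. Nup210, a membrane protein of the nuclear pore, was at most 0.21 RPKM in the 6 and at 10 RPKM or more in 9 of 19, at -2.20.

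Markers of other cell classes seldom passed the level filter. The summed levels of the microglial, mural and pituitary lists were 0 in all 6 low Malat1 cells and at most 1.58, 30.5 and 15.2 RPKM in the others. The summed oligodendrocyte list was 34.2 to 102 RPKM against 0 to 132 RPKM, with Mog, Mobp and Mag listed at 0 in every cell. Cnp, the one member of that list that was higher, was 11.6 to 72.8 RPKM in all 6 and at 10 RPKM or more in 9 of 19. The astrocyte sums were 0 to 188 and 0 to 338 RPKM, with Gfap and Agt listed at 0 in every cell, and the endothelial sums 0 to 115 and 0 to 78.3 RPKM, with Cldn5 at 0 in every cell. The tanycyte and ependymal sums were 0 to 102 and 0 to 64.2 RPKM with Rax at 0 throughout. The precursor sums were 0 to 28.8 and 0 to 52.8 RPKM with Pdgfra at 0 throughout. Members at 0 in every cell were 3 of 9 for astrocytes, 2 of 5 for endothelium, 2 of 6 for tanycytes and ependyma. For precursors they were 4 of 5. The endothelial and the tanycyte and ependymal sums each had 2 low Malat1 cells above all others. Of 2 endothelial genes compared, 1 was higher, at 1.71, and the other was at -0.34. The 1 tanycyte or ependymal gene compared was higher, also at 1.71. Hbb-bs, a haemoglobin chain, was at 10 RPKM or more in 2 of 6 and 11 of 19. The part of such RNA in the differences was not tested.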

How the data were processed

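The authors deposited a single gene table with 1 column per cell. The authors deposited its values as RPKM, scaled by exon length and library size, judging from their decimals and read-sized steps, although its name says counts. The submitters' processing notes name featureCounts 1.4.6, TopHat2 2.0.14, SAMtools 0.1.19, Picard 2.5.0 and bcl2fastq, with mm10 and GRCm38 as builds. What each did, the annotation and the strand setting are not stated there. Of 33082 rows, 26 with date numbers for names were dropped, and for 755 repeated symbols the row of highest sum served, leaving 30903 symbols. Differences are means of log2(RPKM + 1), low Malat1 cells minus others, over genes reaching 10 RPKM in 3 or more cells, and 1 log2 unit is a fold of 2. This scale understates changes of low genes. Cells are not replicates, so no p-value was computed.

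Lengths and classes came from GENCODE M21 (GRCm38), which named 94.2% of the genes compared. They may differ from the authors' lengths, so read numbers are estimates. The depth estimate was tested on simulated data built with these same lengths, so that test does not bear on a difference in lengths. Python 3.11.15, pandas 2.3.3 and numpy 2.4.6 were used. Genes named were Malat1, Meg3, Kcnq1ot1, the nuclear list, the 12 lowest and 12 highest differences, up to 10 non-overlapping genes a direction, up to 4 largest and 2 smallest differences of each list, and 6 reference genes, of which a selection is printed. Some others, such as Kcnq1, Dlk1, Reep3, Hmmr and single-cell values, were picked once their values were known. The members, lists and rule were chosen with earlier results of these data known. Mitochondrially encoded genes, Neat1 and Lncpint were not analysed here. Alternatives changed the pseudocount, filter, centre, scaling, treatment of repeated symbols, Malat1 limit and cells used. Promoters and transcripts are from RefSeq (GRCm38.p6) and GENCODE M21. Certain genes and sequences are not reported here.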

Additional observations from a re-analysis of the deposited data

Results flagged for a closer look

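Within the low Malat1 cells, 4 values stood apart from the other 5 cells of the group by a gap that Dixon's test marks at its 95% level. Chance exceeds that level in about 1 of 20 groups for each measure. More measures than these were tried, so that rate does not hold for the 4 together. The gene numbers of cell 29 are related measures, and the Kcnq1ot1 levels lie near the floor. The cells are of 1 pool, so this only describes them. Cell 29 had 6183 genes at 10 RPKM or more, against 4337 to 4814, and 9271 genes above 0, against 5409 to 6747. Cell 1 had an Snhg11 level of 0.50 on the log2(RPKM + 1) scale, against 3.57 to 5.32, and a Kcnq1ot1 level of 0.070, against 0 to 0.014.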

How the results depend on the processing

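Each cell left out in turn gave 1677 to 2371 lower and 1204 to 1465 higher genes, 3 to 5 non-overlapping genes below (5 without cell 29) and 0 to 1 above (1 without cell 5, 25 or 29). The medians were -1.04 to -0.60 for the nuclear RNAs and -0.59 to -0.17 for the retained-intron mRNAs. Leaving out cells, or another pseudocount, filter or centre, cannot make groups overlap that do not, so for Meg3 and Snhg11 only scaling to equal totals, summed rows and a moved Malat1 limit bear on this. They did not overlap under the first pair or with a limit of 50 RPKM, and did with a limit of 10 RPKM, where 5 of the 6 low cells count among the others.

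With a pseudocount of 0.1 RPKM, 3065 genes were lower and 1938 higher and the nuclear median was -1.87. With 10 RPKM these were 171, 253 and -0.25. The nuclear median was -0.16 with the filter at 6 cells and -0.12 with group medians, and without a filter 8 genes did not overlap below. A Malat1 limit of 10 RPKM left 1 low cell, cell 31, with 3561 genes lower, 2886 higher, and 57 below and 378 above all other cells. In that cell Rian was at 0.042, Snhg12 at 2.98, Snhg1 at 0.43, Cdkn1a at -1.62, Rbfox3 at 1.82, Thy1 at 2.66, Nefl at 1.53 and Gad2 at 2.15, each opposite in sign to the 6 cells.

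Among Sst cells only (3 against 2), 897 of 4120 genes were lower and 1173 higher, so the larger side turned. Of the 4120, 284 did not overlap below and 523 above, and the nuclear median was -0.16. The filter of 3 cells favours higher genes here. A gene reaching 10 RPKM only in the 3 low cells passes. One doing so only in the 2 others, as Meg3 does, is left out. All medians given for Sst cells alone share this limit. There Rian was at 0.054, Sst at -0.41, Nefl at 1.01 and Hbb-bs at 0.59. Among Th cells only (2 against 6), 134 of 6150 genes did not overlap below and 306 above. There the filter left out genes reaching 10 RPKM only in the 2 low cells. The retained-intron median was -0.031, and Rian was at 0.042, Ccnl2 at 0.27 and Pnn at 0.0034. Without the Sst cells 13 of 9300 genes did not overlap below and 9 above, and Egr2 was at -0.91. Fewer cells make overlap less likely by construction.

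An alternative added after seeing the data kept as low cells only 1 and 31, whose genes above 0 lay within the range of the others. Of 9396 genes compared, it gave 2737 lower, 2148 higher, 24 non-overlapping below and 44 above. Rbfox3 was at 1.36, Thy1 at 0.58, Nefl at 0.60 and Syvn1 at 0.056. The cause of the sign changes was not tested. Over all alternatives Meg3 ranged from -6.94 to -3.25, Snhg11 from -6.01 to -3.39 and Maob from 2.68 to 7.36. Depth limits calls resting on single reads, such as Reep3 and Hmmr. No paired analysis was possible because the cells carry only their own numbers and come from 1 pool.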
